A study of Homo sapiens with 6 samples.

Results

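Interleukin-1 (IL-1) family cytokines, receptors and caspase-1, which matures IL-1 beta and IL-18, were followed in cells given the RNA-editing enzyme ADAR1 by an adenovirus. The cells were MDA-MB-231, a long-established human line from a triple-negative breast cancer. The genes were 9 chosen by symbol (IL1A, IL1B, IL1RN, IL18, IL33, IL1R1, IL1RAP, IL1RL1 and CASP1), and each matched 1 row of the 60461 genes in the deposited table. The ADAR1 p110 group held 3 libraries of cells transduced with an adenovirus carrying the coding sequence of the p110 form, and the GFP group held 3 libraries of cells transduced with an enhanced green fluorescent protein control adenovirus. Both groups therefore carried an adenovirus, given at a multiplicity of infection of 200. Medium was replaced at 16 h and RNA was taken at 48 h. The cells were 1 line, and cells without virus were not analysed here. The labels call replicates biological, but do not say whether cultures were separate. The p-values therefore measure only the spread among these libraries, which may be technical.

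IL-1 alpha (IL1A) and IL-1 beta (IL1B) signal by binding the receptor IL1R1, which then recruits the accessory chain IL1RAP and, through the adaptor MYD88 and IRAK kinases, activates the transcription factor NF-kappaB. IL1RN encodes a natural antagonist that occupies IL1R1 without recruiting IL1RAP. IL-18 and IL-33 are related cytokines, IL1RL1 (ST2) is the receptor of IL-33, and caspase-1, the product of CASP1, cleaves the precursors of IL-1 beta and IL-18 inside inflammasomes. IL1A and IL1B are themselves NF-kappaB-responsive genes, and in breast tumours IL-1 is known as an inflammatory signal passed between tumour and stroma.

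Library totals ran from 72741235 to 99589278 counts, so that 3 counts, the upper limit that a count of 0 allows, corresponded to 0.0304 to 0.0414 CPM (counts scaled to library size, here with TMM normalisation over all genes). This limit covers counting error only. ADAR counts were 3.76-fold higher in the ADAR1 p110 libraries, which lay between 991 and 1015 CPM against 257 to 272 CPM in the GFP libraries. ADAR reads of the virus and of the cell were counted together. On the second principal component ADAR1 p110 replicate 1 and GFP replicate 2 stood apart, at 26.2 and 24.1, from the other 4 libraries, which lay between -18.2 and -7.49. Of the 10 markers listed for the line, VIM reached 1885 to 2320 CPM in every library, AXL 1188 to 1353 CPM and CAV1 743 to 891 CPM. KRT18 stood at 618 to 830 CPM, CD44 at 346 to 528 CPM and EGFR at 204 to 278 CPM. The hormone receptor genes ESR1 and PGR had at most 6 counts. ERBB2 was present at 83.9 to 92.2 CPM and GATA3 at 3.30 to 4.20 CPM. CAV1 alone of this list was called by edgeR, as higher with ADAR1 p110 (log2 fold change 0.20, edgeR adjusted p = 0.0378, test described below).

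Of the 9 genes, the 4 that changed were all lower with ADAR1 p110. The IL-1 agonists fell most, IL1A 9.18-fold and IL1B 4.30-fold, and the signalling receptor IL1R1 and its accessory chain IL1RAP fell 1.36-fold and 1.2-fold. IL1RN, IL18 and CASP1 did not pass the test (IL18 alone of them had an unadjusted p under 0.05), and IL33 and IL1RL1 were too low to be tested. The test was the edgeR quasi-likelihood test over 18899 genes with a Benjamini-Hochberg adjusted p under 0.05. It called 4 of the 7 tested genes of the family lower and 0 higher, against 2.96% of all tested genes lower, 1.95% higher and 4.91% in either direction. The family and the lists compared below were chosen with earlier results of these data known, so such contrasts are not independent evidence. The 7 tested genes had a median log2 fold change of -0.36, against 0.00478 over all tested genes. Each of the 7 was above the level of the low-count filter in every library, so none entered the test through 1 group alone. DESeq2 and limma-voom likewise called 4 lower and 0 higher. Over all tested genes these counts were 711 lower and 591 higher with DESeq2, and 586 and 372 with limma-voom. In 5 of the 7 the ADAR1 p110 libraries lay all on 1 side of the GFP libraries, as they did for 24.0% of all tested genes. In bulk RNA, fewer cells that express a gene and less RNA per cell cannot be told apart.

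**Figure D1:**
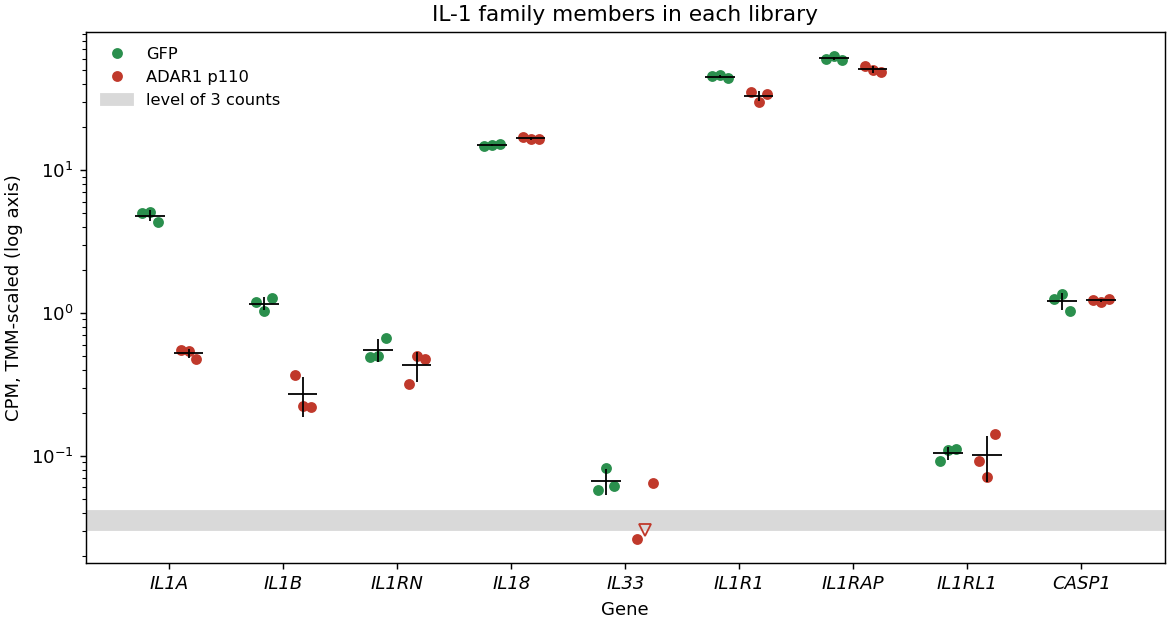
Level of the 9 genes by library, in CPM on a log scale. Green points are GFP and red points ADAR1 p110 libraries, bars across are group means, and upright lines show the SD (n = 3 for each group). The grey band is the level of 3 counts, the open triangle marks the library with 0 counts of IL33, and no mean is drawn for that group. For IL1A the ADAR1 p110 libraries lie at 0.479 to 0.553 CPM and the GFP libraries at 4.32 to 5.13 CPM.

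The agonist genes lie side by side in the same orientation on chromosome 2 (IL1A at chr2:113531492-113542167 and IL1B at chr2:113587328-113594480, hg19, both on the minus strand). The 250 bases before the RefSeq start of each are shown because these were the members with the largest falls and sit next to each other. They were read from the RefSeq promoter table of GRCh38.p14 and each was found at 1 place on chromosome 2 of GRCh37, the build of hg19, at chr2:113542071-113542320 for IL1A and chr2:113594357-113594606 for IL1B. The gene models of the deposited table begin further upstream, and 97 and 124 of these bases lie inside them. Both are written 5′ to 3′ on the minus strand, in lower case, with matches to the motifs searched in capitals.
IL1A: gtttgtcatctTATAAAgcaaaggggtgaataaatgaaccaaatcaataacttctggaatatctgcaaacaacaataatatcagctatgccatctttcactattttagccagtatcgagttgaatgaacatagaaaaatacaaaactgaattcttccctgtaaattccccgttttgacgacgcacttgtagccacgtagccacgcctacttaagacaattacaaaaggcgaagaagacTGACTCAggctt
IL1B: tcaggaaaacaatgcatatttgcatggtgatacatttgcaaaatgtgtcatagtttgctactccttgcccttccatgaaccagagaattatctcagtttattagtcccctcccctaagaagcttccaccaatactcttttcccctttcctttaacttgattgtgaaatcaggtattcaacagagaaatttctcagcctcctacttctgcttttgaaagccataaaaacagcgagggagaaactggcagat

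Motifs were searched on both strands of windows from 250 bases before to 50 bases after a RefSeq start, of which there were 15 for 7 of the 9 genes. IL18 and CASP1 had no entry in that table. The AP-1 motif TGANTCA, recognised by FOS and JUN proteins, was present in both IL1A windows, which overlap, in 1 of 3 IL1RN windows and in 1 of 2 IL1RL1 windows, and in 7.71% of all 35097 windows. In the IL1A sequence shown it is TGACTCA at positions -12 to -6 from the start. The TATA box motif TATAAA was present in 4 of the 15 windows, 1 each of IL1A, IL1RN, IL1R1 and IL1RL1, and in 11.5% of all windows. In the IL1A sequence it lies at -239 to -234, whereas on the plus strand of the IL1RN and IL1RL1 windows it starts at -30 and -29. The IL1R1 window held it only on the minus strand, against the direction of the gene, at -229 to -224 and at -124 to -119. No window of the family held the kappaB consensus, which 11.3% of all windows held. The IL1B sequence had no match to any of these motifs. A match is a description of letters, and a missing match speaks only of these windows.

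IL1A encodes a cytokine that is active as a precursor, stays largely bound to cells and acts as an alarm signal when cells are damaged. Replicates 1, 2 and 3 of ADAR1 p110 held 42, 53 and 37 counts of it, and those of GFP held 431, 372 and 425. Scaled to depth these were 0.553, 0.538 and 0.479 CPM against 4.97, 5.13 and 4.32 CPM. Every ADAR1 p110 library was thus several-fold below the lowest GFP library, and the spread within each group was small beside the gap. This gave a log2 fold change of -3.19 (SE 0.14, 95% interval -3.51 to -2.88, edgeR adjusted p = 2.54e-07).

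IL1B encodes the secreted agonist, which needs caspase-1 or another protease to become active. It had 28, 22 and 17 counts in the ADAR1 p110 replicates and 103, 75 and 125 counts in the GFP replicates. In CPM these were 0.369, 0.223 and 0.220 against 1.19, 1.03 and 1.27. The groups did not overlap, although ADAR1 p110 replicate 1 was higher than its 2 companions. IL1B had a log2 fold change of -2.12 (SE 0.26, 95% interval -2.69 to -1.55, edgeR adjusted p = 0.000874). Without both libraries that stood apart it was -2.46. With so few counts the precision for IL1B was lower than for IL1A, as the wider interval shows.

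IL1RN, the receptor antagonist, had 24, 49 and 37 counts in the ADAR1 p110 replicates and 43, 36 and 66 counts in the GFP replicates. Its levels of 0.316, 0.497 and 0.479 CPM overlapped those of the GFP libraries, at 0.495, 0.496 and 0.671 CPM. The log2 fold change of -0.36 did not pass the test (SE 0.28, edgeR adjusted p = 0.552) and had a 95% interval of -0.98 to 0.25. Gene counts do not part the secreted from the intracellular forms of the antagonist.

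The balance of agonist to antagonist was compared within each library as a log2 ratio of levels per gene length, which is free of scaling between libraries. IL1A exceeded IL1RN 15.4-fold, 15.8-fold and 9.87-fold in the GFP replicates but 2.68-fold, 1.66-fold and 1.53-fold in the ADAR1 p110 replicates. The mean log2 ratio was 3.74 ± 0.38 with GFP and 0.92 ± 0.44 with ADAR1 p110 (SD, n = 3 each), a difference of -2.82 (exact two-sided permutation test, p = 0.1, the smallest p that 3 against 3 libraries can give). IL1B exceeded IL1RN 2.52-fold, 2.19-fold and 1.99-fold in the GFP replicates. In the ADAR1 p110 replicates its level was 1.23, 0.472 and 0.483 times that of IL1RN, so that replicates 2 and 3 held more antagonist than IL1B transcript and replicate 1 did not. That difference in mean log2 ratio was -1.77 (exact two-sided permutation test, p = 0.1, again the smallest possible). Both ratios were separated between groups in all 6 libraries, and both had few counts of IL1RN beneath them.

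**Figure D2:**
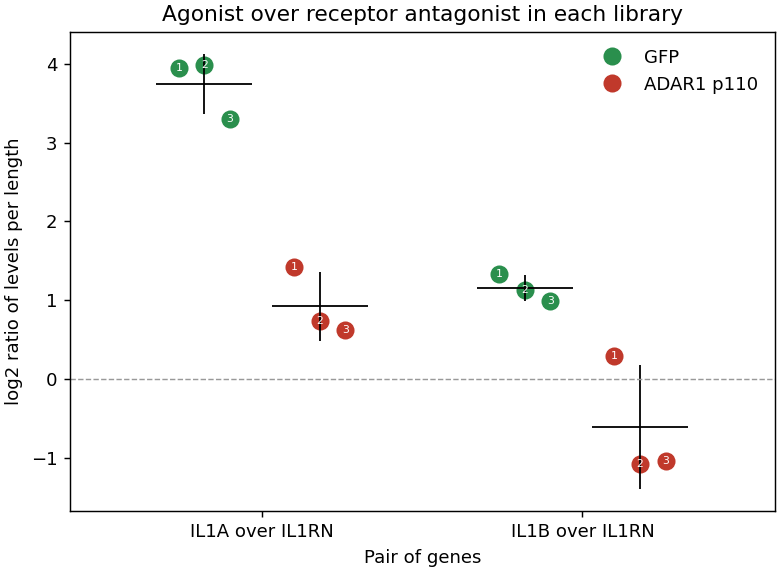
Log2 ratio of the RPKM of an agonist gene to that of IL1RN in each library, with replicate numbers inside the points. Green is GFP, red is ADAR1 p110, bars across are means, and upright lines show the SD (n = 3 for each group). The dashed line is an equal level. The IL1A ratio lies between 3.30 and 3.99 with GFP and between 0.62 and 1.42 with ADAR1 p110.

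IL18 was the most abundant cytokine of the family in both groups. IL18 (chr11:112013974-112034840, hg19, minus strand) encodes a constitutively made precursor that caspase-1 activates and that induces interferon-gamma in lymphocytes. Its levels were 17.1, 16.6 and 16.4 CPM in the ADAR1 p110 replicates and 14.8, 15.02 and 15.2 CPM in the GFP replicates. All ADAR1 p110 libraries were above all GFP libraries, but by little. The log2 fold change of 0.16 (SE 0.06, unadjusted 95% interval 0.02 to 0.29) was not called (edgeR adjusted p = 0.198). IL18 lies within the span of a second gene model named SDHD on the other strand, which had 0 to 3 counts.

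IL33, whose protein is a nuclear alarm cytokine of epithelial and endothelial cells, was close to the limit of detection. It had 2, 0 and 5 counts in the ADAR1 p110 replicates and 5, 6 and 6 counts in the GFP replicates. No difference was detectable at this depth. IL1RL1, its receptor gene, had 7, 7 and 11 counts against 8, 8 and 11 counts, a level of 0.0710 to 0.142 CPM that overlapped between groups. It shares its strand and most of its span with IL18R1, which had 2 to 8 counts, so reads of the pair may have been divided unevenly. Tested without the low-count filter, neither gene was called (edgeR adjusted p = 0.706 for IL33 and 0.994 for IL1RL1).

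IL1R1, the receptor that both agonists share, fell modestly. IL1R1 (chr2:102681004-102796334, hg19, plus strand) stood at 35.3, 30.0 and 33.9 CPM in the ADAR1 p110 replicates and at 45.2, 46.0 and 43.9 CPM in the GFP replicates. The groups did not overlap, and the highest ADAR1 p110 library was still well below the lowest GFP library. The log2 fold change was -0.45 (SE 0.07, 95% interval -0.59 to -0.30, edgeR adjusted p = 0.00334).

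IL1RAP, the chain that IL1R1 needs for signalling and that the IL-33 and IL-36 receptors also use, showed the smallest change that was called. IL1RAP (chr3:190231840-190377539, hg19, plus strand) stood at 53.7, 49.9 and 48.3 CPM in the ADAR1 p110 replicates and at 59.8, 62.5 and 59.2 CPM in the GFP replicates. The log2 fold change was -0.26 (SE 0.06, 95% interval -0.38 to -0.13, edgeR adjusted p = 0.0278). This call depended on the libraries used. With 1 library left out at a time it was lost 5 times of 6, namely without ADAR1 p110 replicate 2, without ADAR1 p110 replicate 3 and without each GFP replicate (edgeR adjusted p = 0.0871 to 0.147). IL1RAP remained lower in each of them.

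CASP1 (chr11:104896170-104905977, hg19, minus strand) was level between groups. It stood at 1.22, 1.19 and 1.25 CPM in the ADAR1 p110 replicates and at 1.26, 1.36 and 1.04 CPM in the GFP replicates, which spanned the former. CASP1 had a log2 fold change of 0.01 (SE 0.17, 95% interval -0.37 to 0.38, edgeR adjusted p = 0.989). Part of CASP1 is closely similar to the neighbouring decoy gene CARD16, at 0.695 ± 0.11 against 0.854 ± 0.11 CPM (SD, n = 3 each), and reads shared by the pair are uncertain.

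Per gene length, as RPKM, the family formed a high, a middle and a low tier. In the GFP libraries the order was IL1R1 at 6.36 ± 0.15, IL18 at 5.70 ± 0.08, IL1RAP at 5.23 ± 0.15 and IL1A at 2.26 ± 0.20, followed by IL1B at 0.376 ± 0.04, CASP1 at 0.330 ± 0.05 and IL1RN at 0.170 ± 0.03 (SD, n = 3). IL33 and IL1RL1 closed the order at 0.0206 and 0.0182 RPKM. Only IL1B with CASP1, and IL33 with IL1RL1, overlapped with their neighbour in that order. In the ADAR1 p110 libraries IL18 came first, at 6.35 ± 0.14, ahead of IL1R1 at 4.67 ± 0.39 and IL1RAP at 4.38 ± 0.24, the last 2 overlapping. IL1A, at 0.246 ± 0.02, now lay below CASP1, at 0.330 ± 0.01. IL1B, at 0.0874 ± 0.03, lay next to IL1RN, at 0.132 ± 0.03, and overlapped with it.

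**Figure D3:**
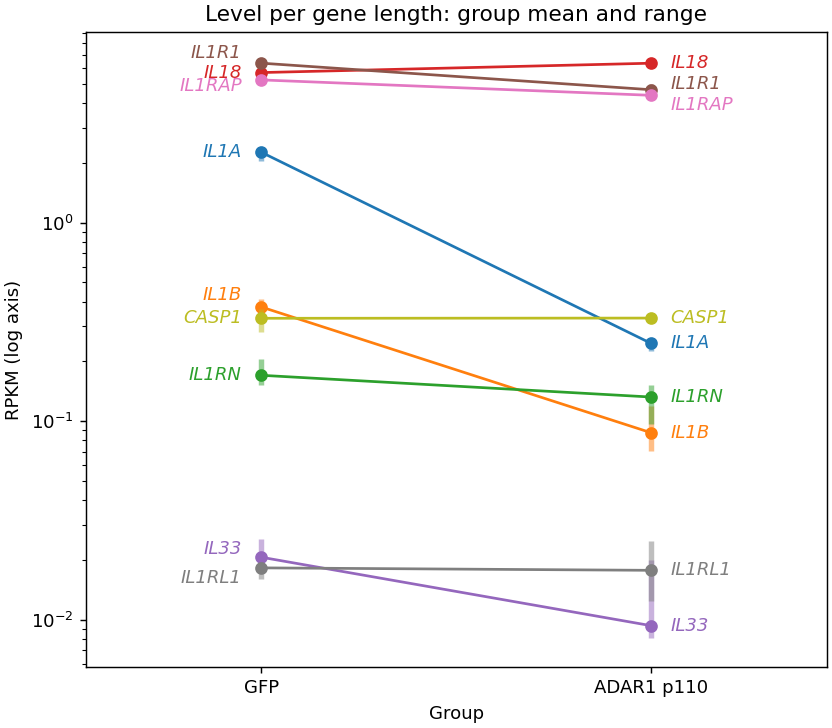
Mean RPKM of each gene in the GFP and ADAR1 p110 groups on a log axis, joined by a line, with thick bars for the range over the 3 libraries of a group (for IL33 with ADAR1 p110, over the libraries above 0). The lines of IL1A and IL1B cross that of CASP1 or IL1RN, from 2.26 to 0.246 RPKM and from 0.376 to 0.0874 RPKM.

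Most of the family sits in 2 clusters of chromosome 2, where the changes differed in size from gene to gene. The ligand cluster, taken from the flanking genes CKAP2L to PSD4, spans 473 kb and holds 11 protein-coding genes, 5 of them tested. IL1A and IL1B lie next to each other at its start. The genes between IL1B and IL1RN, which encode IL-37, the IL-36 cytokines and antagonist and IL-38 (IL1F10), were too low to be tested. IL37 had 2 to 21 counts in the 6 libraries, IL36G 0 to 5, and IL36B and IL1F10 had 0 counts in every library. CKAP2L, a spindle gene beside IL1A, fell by 0.26 on the log2 scale (edgeR adjusted p = 0.0257), from 78.6 ± 1.76 to 65.7 ± 3.81 CPM. PSD4, beyond IL1RN, had a log2 fold change of -0.13 and was not called (edgeR adjusted p = 0.386). Its ADAR1 p110 libraries all lay below its GFP libraries, and the groups were separated for 24.0% of all tested genes. All 5 tested genes of the ligand cluster had a negative log2 fold change, IL1RN at -0.36 without passing the test. The receptor cluster spans 461 kb from IL1R2 to IL18RAP, and of its 3 tested genes IL1R1 alone was called. IL1R2, the decoy receptor, stood at 0.142 to 0.376 CPM over the 6 libraries. IL1RL2, the IL-36 receptor, had means of 2.0 and 1.99 CPM, and IL18RAP had 0 counts in every library.

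**Figure D4:**
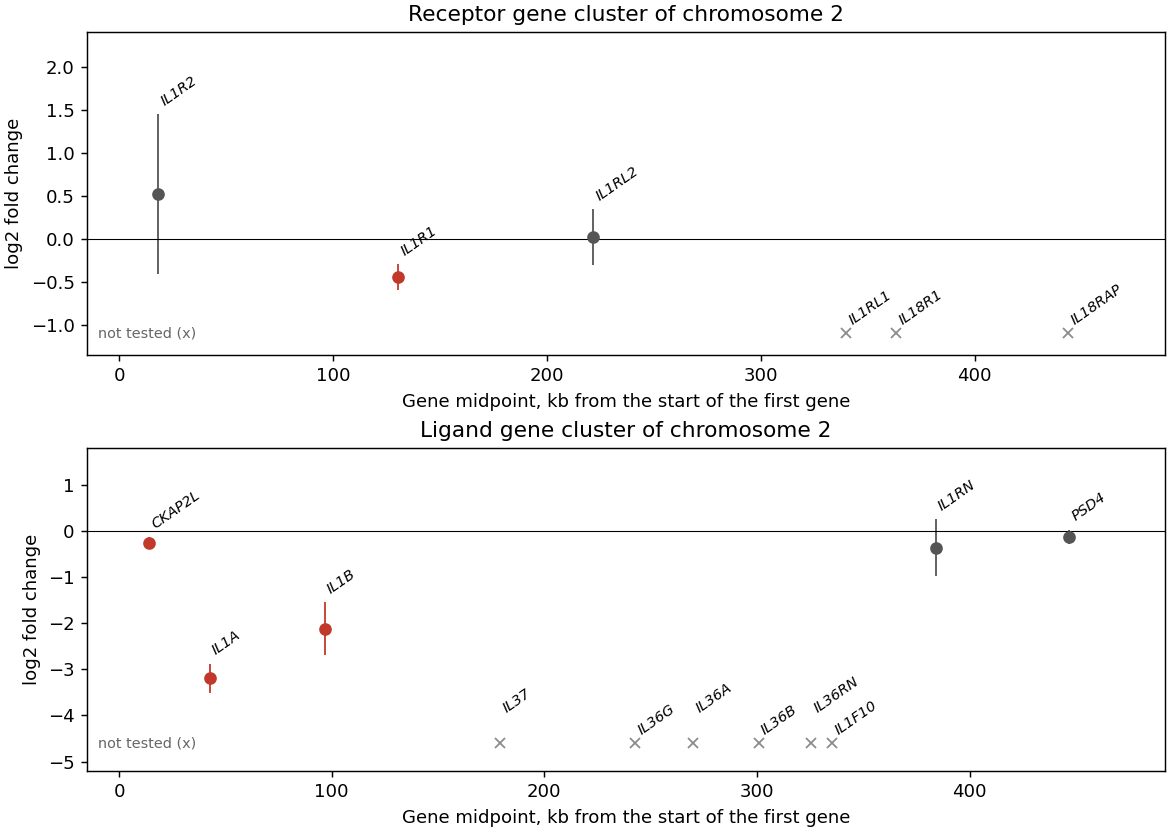
Change from GFP to ADAR1 p110 (log2 fold change, with its 95% interval) for protein-coding genes of the receptor cluster (top) and the ligand cluster (bottom) of chromosome 2, by gene midpoint in kb from the start of the first gene. Red points were called, dark points were not, and crosses at the foot of each panel mark genes too low to be tested. IL1A and IL1B stand out at -3.19 and -2.12, and CKAP2L lies beside them at -0.26.

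The rest of the IL-1 system changed in few places. Of 50 further genes for ligands, receptors, inflammasomes and receptor signalling, 36 were tested, 4 fell and 1 rose, with a median log2 fold change of -0.04. The share called, 5 of 36, stood above the 4.91% of all tested genes, but this count ranged from 3 to 12 over the alternative settings. The count over all tested genes moved too. It was 2605 of 19465 genes in the setting that gave 12, and 396 to 483 in the settings that gave 3. Among other ligands and receptors 0 of 5 tested genes were called by edgeR, DESeq2 or limma-voom, and 1 (IL1RAPL1) had an unadjusted p under 0.05. Per length, the most abundant of them with GFP were IL1RAPL1, a neuronal relative of IL1RAP, and IL18BP, which encodes the soluble inhibitor of IL-18. IL1RAPL1 stood at 30.3 ± 2.0 against 35.2 ± 0.93 CPM (SD, n = 3 each, edgeR adjusted p = 0.0835). IL18BP stood at 4.99 ± 0.45 against 5.34 ± 0.34 CPM (SD, n = 3 each, edgeR adjusted p = 0.664). With ADAR1 p110 the receptor gene SIGIRR lay above IL18BP, at 1.29 against 1.15 RPKM. The IL-18 receptor gene IL18R1 had at most 8 counts in any library.

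The inflammasome sensors NLRP3 and AIM2 and the caspase gene CASP4 fell slightly. Of 12 tested inflammasome and processing genes 3 fell and 0 rose by edgeR, where the shares of all tested genes were 2.96% and 1.95%. DESeq2 called 4 lower, the fourth being CASP8 (log2 fold change -0.20, edgeR adjusted p = 0.0643), and limma-voom 3. Both called 0 higher, and at an unadjusted p under 0.05 edgeR had 4 lower and 2 higher (NEK7 and PYCARD). Over all tested genes DESeq2 called 711 lower, limma-voom 586 and edgeR 559. NLRP3, the sensor that assembles the caspase-1 platform, was at 5.52, 5.61 and 5.65 CPM in the ADAR1 p110 replicates and at 7.78, 7.95 and 7.46 CPM in the GFP replicates. The groups did not overlap (difference of -0.47 on the log2 scale, edgeR adjusted p = 0.0063). CASP4, an inflammatory caspase that senses bacterial lipopolysaccharide, fell from 31.7 ± 0.44 to 24.2 ± 1.69 CPM (edgeR adjusted p = 0.00556). AIM2, a sensor of cytosolic DNA, fell from 12.4 ± 0.73 to 9.85 ± 0.10 CPM (edgeR adjusted p = 0.0244), and this call was lost without ADAR1 p110 replicate 2 or 3 or GFP replicate 1 or 2 (edgeR adjusted p = 0.0864 to 0.113). PYCARD, the adaptor ASC, had a log2 fold change of 0.24 (edgeR adjusted p = 0.208) and GSDMD, the pore-forming effector, one of 0.10 (edgeR adjusted p = 0.454). SERPINB9, a serpin and the most abundant of the list per length, had means of 177 and 176 CPM. PYCARD, GSDMD, NEK7 and CASP8 were picked after their values were seen.

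Downstream of the receptor, edgeR called 1 of 19 tested signalling genes lower and 1 higher, where the shares of all tested genes were 2.96% and 1.95%. DESeq2 called 4 lower and 1 higher, and limma-voom 2 lower and 1 higher. Over all tested genes DESeq2 called more than edgeR did, 711 lower and 591 higher against 559 and 368. The counts of limma-voom there were 586 and 372. IRAK2, a kinase of the IL-1 receptor complex, stood at 16.6, 18.3 and 17.7 CPM in the ADAR1 p110 replicates and at 41.9, 39.4 and 37.9 CPM in the GFP replicates. It fell 2.27-fold without overlap (-1.18 on the log2 scale, edgeR adjusted p = 1.1e-06). PELI3, a Pellino ubiquitin ligase that binds IRAK proteins, rose from 10.2 ± 0.26 to 13.1 ± 0.64 CPM (edgeR adjusted p = 0.0146), a call lost without ADAR1 p110 replicate 2 or 3 or GFP replicate 1 or 3 (edgeR adjusted p = 0.0506 to 0.0797). IRAK1, the most abundant of the list per length, stood at 265 ± 4.78 against 243 ± 11.9 CPM (edgeR adjusted p = 0.226). MYD88, the adaptor, had a log2 fold change of -0.34 and lay at the threshold without passing it in edgeR (adjusted p = 0.0501), while DESeq2 and limma-voom called it lower. IRAK3, an inhibitory member of the kinase family, and PELI1, another Pellino ligase, differed by -0.33 (edgeR adjusted p = 0.0566) and by -0.37 (edgeR adjusted p = 0.0647) on the log2 scale and were called lower by DESeq2 alone of the 3 tools. These 3 genes had groups that did not overlap, as did 8 of the 19 tested signalling genes and 24.0% of all tested genes. They were picked after their values were seen.

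**Figure D5:**
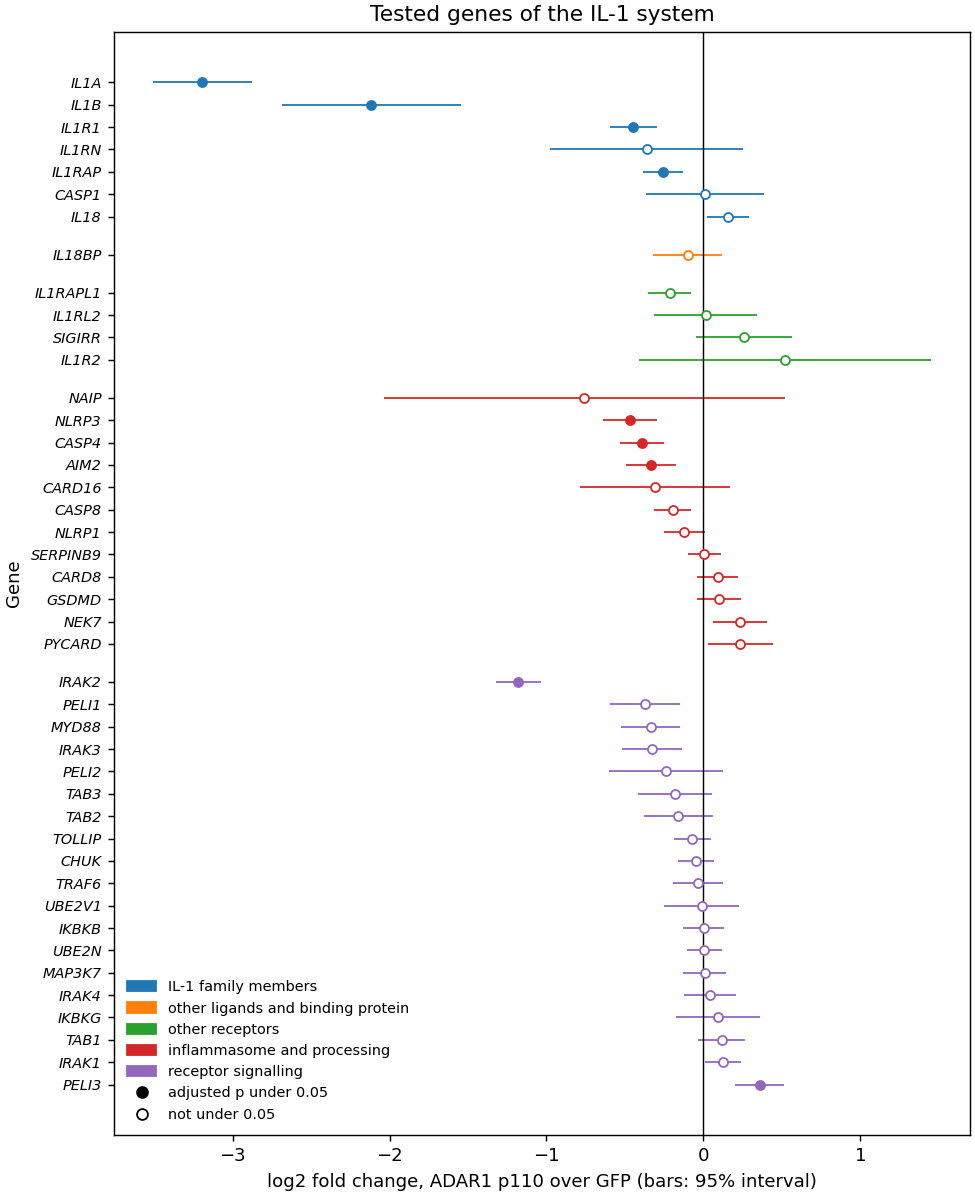
Change from GFP to ADAR1 p110 (log2 fold change, with its 95% interval) for the 7 tested members of the family and the 36 other tested genes of the IL-1 system, coloured by role. Filled points had an adjusted p under 0.05. IL1A, at -3.19, IL1B, at -2.12, and IRAK2, at -1.18, lie apart from the rest, and PELI3, at 0.36, is the filled point to the right of 0.

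Genes that IL-1 is known to induce through NF-kappaB were all lower. Of 18 tested genes of that list 18 fell, against 2.96% of all tested genes lower, with a median log2 fold change of -1.96. These genes were listed with earlier results of these data known, so its direction is not independent evidence. The 3 with the smallest p were the chemokine genes CXCL1 and CXCL8 and the adhesion molecule ICAM1, with log2 fold changes of -4.10, -3.56 and -2.40. Profiles near that of IL1A over the 6 libraries were sought by Euclidean distance of centred log2 CPM. The search took tested genes whose higher group mean reached 1 CPM, except those with clone, LINC or LOC names. The nearest were CSF2 (distance 0.552), UNC13A (0.578), CXCL8 (0.653), TNFRSF9 (0.695) and CSF3 (0.722). CSF2 and CSF3 encode colony-stimulating factors, TNFRSF9 a costimulatory receptor and UNC13A a synaptic vesicle priming protein. Their log2 fold changes ran from -3.64 in CSF3 to -2.64 in TNFRSF9, and that of CXCL8 was -3.56. Because these genes were picked for likeness to IL1A over the same libraries, fold changes near its own follow from the choice. They are no separate evidence, and CSF2, CXCL8 and CSF3 also belong to the induced list.

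Leukocytes are a major source of IL-1 in tissue, and their markers were read beside the falls. Of 10 myeloid markers 4 were tested and 0 were called by edgeR, DESeq2 or limma-voom. At an unadjusted p under 0.05, CSF1R was lower and LYZ higher with ADAR1 p110. Their summed level was 10.5 to 11.2 CPM with ADAR1 p110 and 11.8 to 14.1 CPM with GFP, most of it CSF1R and CD14. Of the 10, TYROBP had 0 counts in every library, and CD163 and AIF1 had at most 1 count. SPI1 had at most 9 counts, ITGAM 4 to 11, FCER1G 2 to 21 and PTPRC 15 to 34. LYZ had 59 to 118 counts, CD14 202 to 363 and CSF1R 459 to 737. There were 5 endothelial markers with a matching row, of which 3 were tested and KDR fell, by 0.45 on the log2 scale (edgeR adjusted p = 0.00603). The summed endothelial level, most of it KDR, was 7.54 to 8.07 CPM with ADAR1 p110 and 10.1 to 11.0 CPM with GFP. VWF and TEK, with log2 fold changes of 0.31 and -0.56, were not called, and CDH5 and CLDN5 had at most 3 counts. The part of these markers in the falls of IL1A and IL1B was not tested.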

How the data were processed

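Total RNA of 6 MDA-MB-231 libraries was sequenced after a stranded total RNA kit, per the labels' protocols. The submitters' processing notes name hg19, STAR 2.5.2a, featureCounts 1.5.1, DESeq2 1.4.5 and R 3.1. The deposited values are raw counts per gene with coordinates and gene lengths, per the file headers. Strand setting, treatment of multiply aligned reads and duplicate removal: not given in the sources used here, so reads of overlapping or near-identical genes are uncertain.

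Here, genes were kept by filterByExpr (minimum count 10), scaled by TMM and tested with glmQLFit and glmQLFTest of edgeR 4.0.16 (R 4.3.3). The model held group alone, with Benjamini-Hochberg adjustment over all 18899 tested genes. An SE is the log2 fold change divided by the square root of F, and RPKM are TMM-scaled CPM per kb of the deposited length. The members and lists were chosen with earlier results of these data known. Named were all 9 members and called genes of each list (the 3 with the smallest p of the induced list). The tested gene with the highest RPKM in the GFP libraries was named from each other list. Also named were the 5 genes nearest to IL1A in profile, without genes that have clone, LINC or LOC names. The gene PECAM1 of the endothelial list was not matched. Alternatives were the DESeq2 1.42.0 Wald test, limma-voom (limma 3.58.1), DESeq2 size factors, scaling by library size only, all genes without a filter, a replicate block, each library left out, both libraries that stood apart left out, and a pseudocount of 0.5 for the ratios.

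Replicates of a group differed by chi-square values of 8.64 to 39.7 per degree of freedom, so none repeated another. On simulated counts for this comparison, with 18899 genes, edgeR found 20% of 1.2-fold, 84% of 1.5-fold, 94% of 2-fold and 100% of 4-fold changes. Of its calls 6.29% were false, against 11.3% of those of DESeq2 and 5.73% of those of limma-voom. The changes were placed only in genes above a minimum mean count, which IL1RN did not reach. The shares found therefore do not apply to IL1RN or to other genes with so few counts.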

Additional observations from a re-analysis of the deposited data

How the results depend on the processing

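IL1A, IL1B and IL1R1 stayed lower and called in all 13 alternatives, with log2 fold changes of -3.26 to -3.13, -2.46 to -1.98 and -0.49 to -0.38. The number of members called was 3 or 4 throughout, IL1RAP being the one lost, also with the replicate block (adjusted p = 0.0932), which ended the call of AIM2 too (adjusted p = 0.0754). The replicate numbers were not shown to pair the libraries, since deviations of same-numbered libraries correlated at -0.109, -0.0296 and 0.0433, and no ADAR1 p110 library correlated best with its own number. The block gave 508 called genes over the whole table against 927. That count was 1553 without a low-count filter, 2605 without both libraries that stood apart (ADAR1 p110 replicate 1, GFP replicate 2), and 396 to 1812 when each library was left out. Library size alone gave 479 lower and 510 higher genes, against 559 and 368, and moved the median of all genes to 0.03. The number of other IL-1 system genes called, 5, was 8 without the filter, 9 with the DESeq2 Wald test, 12 without both of those libraries, and 3 to 9 when each library was left out, with 9 without ADAR1 p110 replicate 1. The number of induced genes called was 17 or 18. The difference in the log2 ratio of IL1A to IL1RN ran from -3.07 to -2.67 and that of IL1B to IL1RN from -2.23 to -1.53. With each library left out, the log2 fold change of CASP1 ran from -0.0971 (without GFP replicate 3) to 0.0982 and was -0.00820 without ADAR1 p110 replicate 3. That of SERPINB9 ran from -0.0150 (without ADAR1 p110 replicate 1) to 0.0255 and was -0.0107 without both libraries that stood apart, none of them called. The causes of these shifts were not tested. Depth limits what can be said of IL33 and IL1RL1.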
